A study of Rattus norvegicus with 16 samples.

Results

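The hairpin rno-mir-122 is described here through its own reads. It is 1 of 392 hairpins listed for 16 small RNA libraries of rat, and its members are all rows under that name, taken with their start, end and read number on the hairpin. Over all libraries 4562880 of 15196294 reads belonged to it, in 123 forms of distinct start and end, and 4561126 of these reads came from the 6 livers. The other 1754 reads came from 10 libraries of brain, spleen, heart, testis and kidney.

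The libraries were made from whole tissues of adult male rats of the inbred strains BN-Lx (polydactyly-luxate syndrome brown Norway) and SHR (spontaneously hypertensive rat), untreated as far as the labels say. The six-tissue set covered whole brain, heart, kidney, liver, spleen and testis from 1 BN-Lx rat and 1 SHR rat, so each strain is 1 animal there. A further 2 livers of each strain, called replicates 2 and 3, came from other rats, which gave 3 livers a strain. The six-tissue set held 403453 to 1064894 hairpin reads per library apart from testis, with 26880 and 29131, and the further livers held 1167607 to 3229461. The study's methods gave testis and the SHR liver of the six-tissue set more PCR cycles than the rest. By the mean of both animals of the six-tissue set, the marker miRNAs of brain, heart, spleen, kidney and liver were all highest in the labelled tissue, as were the 3 of 4 testis markers that the files name. In the further livers the liver marker mir-192 had 57709 to 78798 rpm, below the 98344 rpm of BN-Lx kidney. The livers of the six-tissue set stood apart from the further livers: for 52.3% of 128 hairpins the arm ratios of these sets did not overlap. The shortest reads were 17 nt in the six-tissue set and 15 nt in the further livers, which were also deeper. Starts, ends and arm ratios are therefore given liver by liver or by set where these sets do not overlap.

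A miRNA hairpin is cut by Drosha in the nucleus and by Dicer in the cytoplasm, which leaves a short duplex of a 5′ arm (5p) and a 3′ arm (3p). One strand is loaded into Argonaute and the other is mostly degraded, so the arm ratio describes which strand persists. The 5′ start sets the seed, bases 2 to 8, which pairs with target mRNAs, whereas the 3′ end often varies by trimming or by where Dicer cut. In the liver mir-122 is the hallmark miRNA of hepatocytes, where it acts in cholesterol and lipid metabolism and binds the hepatitis C virus genome, and mir-122-5p is the usual guide strand.

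The sequences are shown because starts and ends are read against them. RefSeq places the hairpin on the plus strand of GRCr8 at chr18:61028817-61028901. Here it is written with the annotated arms in capitals, 5p at bases 15 to 36 and 3p at bases 51 to 69, counted from 1 at its 5′ end. These positions are also where the files' own leading starts fall, so both use the same count.

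mir-122 hairpin: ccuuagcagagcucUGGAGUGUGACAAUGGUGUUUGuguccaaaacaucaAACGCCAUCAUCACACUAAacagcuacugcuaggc

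In the read forms the capitals mark the seed. The 3p arm is given with both of its common starts, since they carry different seeds.

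mir-122-5p, bases 15 to 36: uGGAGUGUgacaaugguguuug
mir-122-3p from base 51, bases 51 to 69: aACGCCAUcaucacacuaa
mir-122-3p from base 50, bases 50 to 69: aAACGCCAucaucacacuaa

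Of the 724 mature rat miRNAs of RefSeq searched, the seed GGAGUGU was found in mir-122-5p alone and ACGCCAU in mir-122-3p alone. The seed AACGCCA of the 3p reads from base 50 was found in 0 of them, and so was GAGUGUG, the seed of 5p reads that start at base 16.

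Both arms were read in all 16 libraries, and liver lay far above every other tissue. In the livers of the six-tissue set mir-122-5p had 266223 rpm (reads scaled to a library total of 1000000 hairpin reads) in the BN-Lx rat and 322392 rpm in the SHR rat. Of the further livers, the BN-Lx pair had 456457 and 428010 rpm and the SHR pair 398590 and 430768 rpm. For mir-122-3p the BN-Lx livers had 77972, 40228 and 33950 rpm and the SHR livers 67429, 61842 and 56122. The strains overlapped for both arms. The arms did not follow each other between livers, since the livers of the six-tissue set were the lowest of the 6 for 5p and the highest for 3p.

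Outside the liver the next tissue by rpm was testis. The rpm counts hairpin reads only, and by the study most small RNA reads of testis were not of miRNAs. In testis mir-122-5p had 1079 rpm in BN-Lx and 721 in SHR, from 29 and 21 reads. Brain followed with 220 and 188 rpm (234 and 162 reads) and kidney with 123 and 119 rpm (67 and 71 reads). Heart had 71.9 and 98.3 rpm and spleen 75.9 and 82.5 rpm, and these last tissues overlapped each other, whereas testis, brain, kidney and the last pair did not overlap. For mir-122-3p testis was again the highest with 2344 and 2094 rpm. Below it brain had 222 and 179 rpm, kidney 130 and 110, spleen 110 and 26.2, and heart 79.3 and 325. Brain, kidney and spleen did not overlap each other, the last of these by under 1 rpm, whereas heart overlapped all of them.

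**Figure D1:**
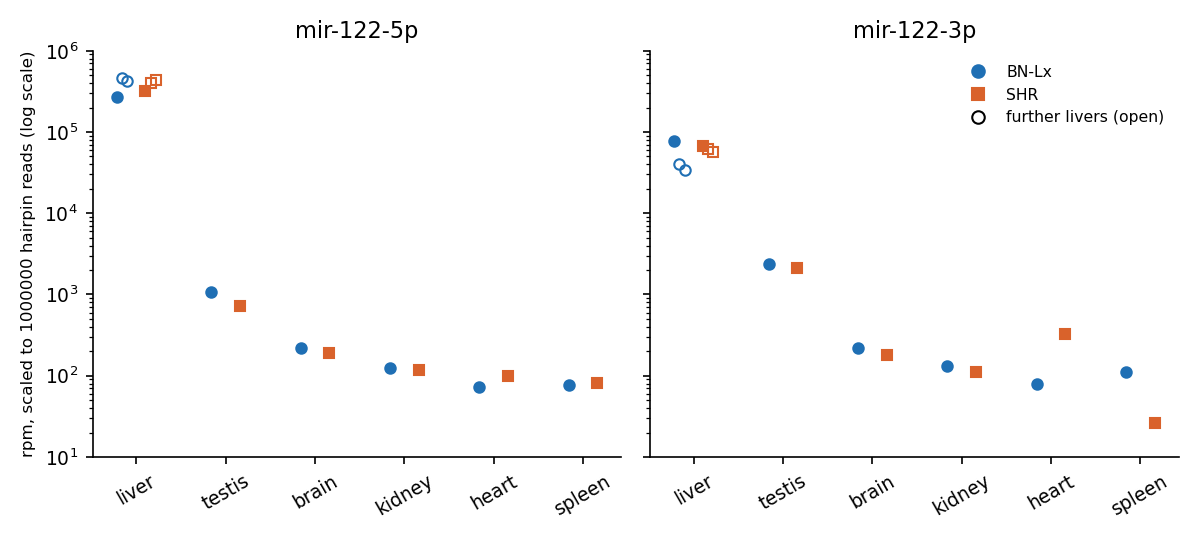
Level in rpm of mir-122-5p (left) and mir-122-3p (right) on a log axis, 1 point per library; circles are BN-Lx, squares SHR, and open symbols the further livers. Both arms are highest in liver, and testis comes next with 721 to 1079 rpm for 5p and 2094 to 2344 rpm for 3p.

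Against the liver of the same animal these traces were 0.0256% to 0.405% for 5p and 0.0388% to 3.11% for 3p. Without the shallow testis libraries the highest were 0.0825% and 0.482%. In edgeR's quasi-likelihood fit of the 12 libraries of the six-tissue set, with strain (here the animal) as a term, liver was above the mean of the other tissues by 11.55 on the log2 scale for 5p (SE 0.18, adjusted p 3.0e-14). For 3p it was above by 9.04 (SE 0.44, adjusted p 1.1e-08). Of 457 arms tested, 25.8% were called in either direction and 13.8% as higher in liver. In bulk tissue fewer cells of a type and less RNA per cell cannot be told apart.

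The other miRNAs listed for liver were fitted in the same test. Of 11 hairpins on the list 10 were in the files, and of their 14 arms tested 11 were higher in liver, 0 lower and 3 not called, with a median of 3.38 on the log2 scale against -0.38 for all 457 arms. Of these, mir-802-5p differed by 9.05 (SE 0.51) and mir-802-3p by 8.73 (SE 0.79). The arms of mir-192, which is also abundant in kidney, differed by 5.67 (SE 0.14) for 5p and 5.46 (SE 0.32) for 3p. At the other end mir-101a-3p differed by -0.02 (SE 0.33). The mir-122 arms thus had the value above all 14 for 5p and one close to mir-802 for 3p. In both testis libraries mir-802 had 0 reads, which at this depth allows 112 and 103 rpm.

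Among 566 arms with a mean of at least 1 rpm, those whose levels over the 12 libraries were most like mir-122-5p by Pearson's r of log2(rpm + 1) were mir-31-3p (0.915), mir-802-3p (0.872), mir-675-3p (0.775), mir-365-3p (0.752) and the 3p arm of sblock27530, a hairpin without a miRNA name (0.750). Its own 3p arm had 0.962. These are descriptions, because the libraries share 2 animals and liver sets most of each r. The level of mir-31-3p was 1305 and 880 rpm in liver and at most 260 rpm elsewhere. In the further livers mir-31-3p, mir-802-3p and mir-365-3p also lay above every other tissue. There mir-675-3p had 19.5 to 32.9 rpm, against 109 and 95.8 in the six-tissue livers and at most 14.9 in other tissues. The sblock27530 arm had 1.96 to 5.84 rpm there, which overlapped other tissues (at most 2.48).

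The share of mir-122 reads that came from the 3p arm was low in liver and near or above an even split in most other libraries. In BN-Lx livers it was 22.7%, 8.10% and 7.35%, and in SHR livers 17.3%, 13.4% and 11.5%. The lowest and highest liver thus had 12.6 and 3.41 reads of 5p for each read of 3p. The shares rest on 161111 to 1572392 reads, and the widest exact 95% interval of a liver was 22.4% to 22.9% in BN-Lx liver 1. This interval and the ones that follow cover counting error only.

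In brain 3p reads made up 50.2% in BN-Lx and 48.7% in SHR, from 470 and 316 mir-122 reads. In kidney they were 51.4% and 48.2%, in testis 68.5% and 74.4%, and in heart 52.5% and 76.8%. In spleen BN-Lx had 59.1% but SHR 24.1%, the latter 13 of 54 reads (exact 95% interval 13.5% to 37.6%). That library was the only one outside the liver near the liver values, and the other 9 lay between 48.2% and 76.8%.

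**Figure D2:**
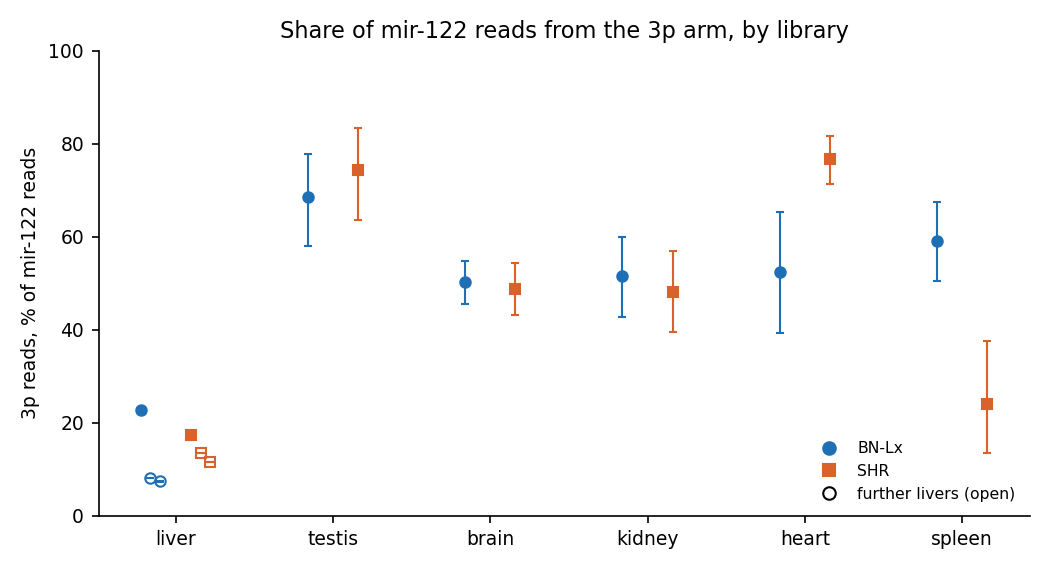
Share of mir-122 reads from the 3p arm in each library, in percent, with exact 95% binomial intervals; circles are BN-Lx, squares SHR and open symbols the further livers. The livers lie between 7.35% and 22.7%, and the other libraries between 24.1% (SHR spleen) and 76.8% (SHR heart).

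On the log2 scale of 5p over 3p, with 0.5 read added to each, the livers of the six-tissue set had a mean of 2.01 and the other 10 libraries of -0.33 ± 0.96 (SD). The difference was 2.35 (SE 0.63, 95% interval 0.91 to 3.78), with 2.15 in BN-Lx alone and 2.54 in SHR alone. It did not pass the adjustment over the 81 hairpins tested by limma (adjusted p 0.136). The groups did not overlap, as was so for 4 of the 81 hairpins (4.94%). In an exact two-sided permutation test of the library means, 2 livers against 10, p was 0.0152, the smallest these 66 splits allow, and 0.0758 after adjustment over the 5 measures of mir-122 tested between tissues.

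That call changed when the SHR spleen library was left out. No other single library was left out in turn, so whether others would change it was not tested. Without SHR spleen, a choice made after the values were seen, the difference was 2.58 (SE 0.51) with an adjusted p of 0.0386. With all 16 libraries it was 3.13 (SE 0.46, adjusted p 0.00053), but the 4 livers added there belong to no set with other tissues.

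Set among the hairpins, mir-122 had the third highest change of arm ratio towards 5p in liver. In limma 2 of the 81 hairpins (2.47%) were called, namely mir-7a-1 with 5.36 (SE 0.49) and mir-204 with 3.18 (SE 0.41). The log2 ratio of mir-204 was -7.60 in liver and -10.8 elsewhere, so nearly all its reads came from a single arm. Its arm labels follow from the side on which its rarer reads lay, and its change rests on those reads. The lowest values, towards 3p, were those of mir-365 (-2.60), mir-30c-2 (-1.52) and mir-99a (-1.43), none of which was called. Their log2 ratios in liver and elsewhere were -12.9 and -10.3 for mir-365, 7.58 and 9.10 for mir-30c-2, and 8.18 and 9.61 for mir-99a. Nearly all reads of each thus came from a single arm, and these changes also rest on the rarer reads. The median of all 81 was 0.12. Of the listed liver hairpins 4 could be tested, with 0 called and a median of 0.24.

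Between strains the arm ratio in liver was 2.98 ± 1.05 (SD, n = 3) in BN-Lx and 2.63 ± 0.35 (SD, n = 3) in SHR on the log2 scale, where the strains overlapped (4.69% of the 128 hairpins did not). The difference of -0.35 (SE 0.78, 95% interval -2.20 to 1.50) was not called by limma (adjusted p 0.987, 0 of 128 hairpins called, 0%). The exact permutation p was 0.6, where 3 livers against 3 cannot give less than 0.1. In the 4 further livers alone, the SHR pair had the lower ratio of both, 6.45 and 7.68 against 11.3 and 12.6, a difference of -0.77 on the log2 scale. This was not called either: over the 12 alternatives of this comparison the adjusted p by limma was at least 0.791. How many of all hairpins part in this way among these 4 livers was not counted.

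By set the livers did not overlap in this ratio, which was also so for 52.3% of the 128 hairpins. By strain the livers overlapped. The livers of the six-tissue set had ratios of 3.41 and 4.78, both below the 6.45 to 12.6 of the further livers. On the log2 scale they were lower by a mean of 1.18, and the median of the 128 hairpins was lower by 0.34. The animals, their sequencing depth, the shortest read length and the set cannot be told apart.

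Levels of the arms did not differ by strain beyond the spread between livers. In edgeR the difference, SHR minus BN-Lx, was 0.01 on the log2 scale for 5p (SE 0.48, 95% interval -1.12 to 1.13) and 0.32 for 3p (SE 0.41, 95% interval -0.65 to 1.28), both with an adjusted p of 0.995. Of 271 arms 0 were called (0%), with 6 at an unadjusted p under 0.05, and DESeq2 called 0 with 9 unadjusted. In the 4 further livers alone the 3p difference was 0.78 (SE 0.22, adjusted p 0.301 by edgeR). The intervals over 6 livers include differences of 2-fold in either direction for 5p.

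The 5′ start of mir-122-5p was nearly fixed. Base 15 began 98.9% of the 5p reads in BN-Lx liver 1 and 99.1% in SHR liver 1. In the further livers it began 99.8% each time. The next start was base 16, one base inside, with 1.0% and 0.827% in the livers of the six-tissue set and 0.166% to 0.205% in the further livers, so these sets did not overlap. On the log2 odds scale the share of the main start was lower in the first set by 2.27. For all 165 arms tested the median was lower by 0.85, and the sets did not overlap for 58.8% of them.

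Elsewhere base 15 was also the leading 5p start, in 10 of 10 libraries, with 87.8% to 100% of the reads. Reads off that start numbered 0 to 6 per library, so the shares are coarse, and 5 libraries had 0. Base 16 had 5 of 56 reads in BN-Lx spleen (8.93%, exact 95% interval 2.96% to 19.6%) and 5 of 234 in BN-Lx brain. The log2 odds of the main start differed between liver and the other tissues by 1.56 (SE 0.43, adjusted p 0.140 by limma, exact permutation p 0.182), and 1 of 79 arms was called (1.27%). With 1 read added in place of 0.5 the value was 2.11 (adjusted p 0.005), so the call depends on how counts of 0 are treated.

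The 3p arm had a pair of starts instead, in nearly constant proportion. Base 51 began 68.3%, 70.7% and 68.7% of the 3p reads in BN-Lx livers and 66.6%, 68.8% and 69.1% in SHR livers. Base 50, one base outside, began 31.4%, 29.2% and 31.0% in BN-Lx livers and 33.0%, 31.0% and 30.7% in SHR livers. Base 49 had at most 0.172%. The highest and lowest liver thus lay 4.11 points apart in the share of base 51, over arm totals from 33796 to 189733 reads and both sets.

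Such constancy can be set beside the other arms. Reads off the leading start made up a mean of 31.3% for mir-122-3p, which ranked 12 of 165 arms, whereas 0.453% for mir-122-5p lay under the median arm (1.70%). Among the 17 arms with a mean of 20% to 50%, the highest and lowest liver differed by 4.11 percentage points for mir-122-3p, the smallest range, against 9.82 for the next arm and a median of 18.7. Depth differs among these arms: only 3 of the 17 had at least 1000 reads in every liver, and the next range among those was 10.4 points, for mir-140-3p. These bounds were chosen after the values were seen, and the ranks are a description.

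**Figure D3:**
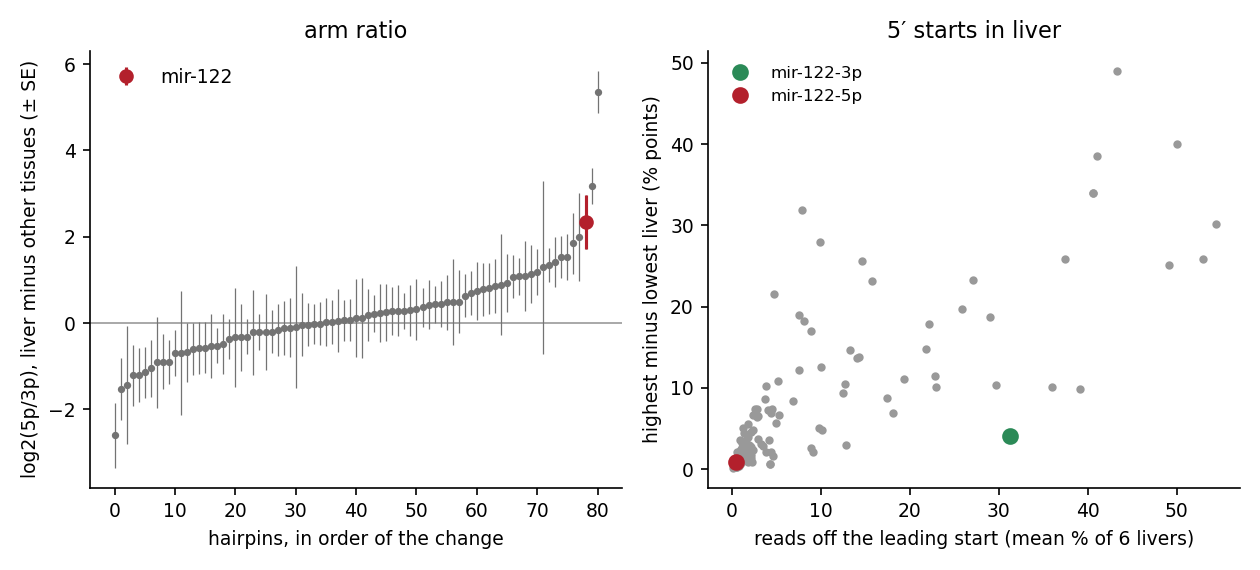
Left, difference of log2(5p/3p) between liver and the other tissues for 81 hairpins in order of size, with SE; mir-122 (red) has 2.35. Right, mean share of liver reads off the leading start against the gap between the highest and lowest of 6 livers, for 165 arms; mir-122-3p (green) has 31.3% and a gap of 4.11 points, mir-122-5p (red) 0.453%.

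The same pair of 3p starts was seen in the traces. Base 51 led in 10 of 10 other libraries, and base 50 had 27.5% and 31.8% in brain, from 236 and 154 reads of 3p. SHR heart, with 205 reads of 3p, had 23.4% (exact 95% interval 17.8% to 29.8%). The range was 19.7% (SHR kidney) to 46.2% (6 of 13 reads in SHR spleen), and every exact interval of the 10 libraries reached values seen in the livers. Between liver and the other tissues the log2 odds of base 51 differed by -0.22 (SE 0.32, 95% interval -0.96 to 0.53, adjusted p 0.773 by limma). Here 3 of 137 arms with at least 5 reads in each library were called (2.19%).

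By strain the odds of the main start in liver differed by 0.005 for 5p (SE 0.92) and by -0.07 for 3p (SE 0.35), each with an adjusted p of 0.996 by limma. Of 165 arms 0 were called (0%), with 5 at an unadjusted p under 0.05, and the strains overlapped for both mir-122 arms but not for 6.67% of the arms. For 3p the observed shares lay within 4.11 points of each other, but the interval of the fitted difference, -0.93 to 0.78, borrows its spread from all arms.

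At the 3′ end mir-122-5p was mostly 22 nt long, the annotated form. Of reads from base 15, the form to base 36 made up 39.3%, 62.2% and 59.3% in BN-Lx livers and 59.0%, 68.1% and 69.3% in SHR livers. It was the leading form in all 16 libraries. The 21 nt form to base 35 followed with 32.1%, 19.5% and 21.9% in BN-Lx livers and 23.3%, 18.1% and 16.8% in SHR livers. The 23 nt form to base 37 had 23.9%, 15.1% and 16.8% in BN-Lx livers and 14.1%, 11.3% and 11.1% in SHR livers. Longer reads ended abruptly, since base 38 had at most 0.278%. BN-Lx liver 1 stood apart from the other livers with the lowest share of 22 nt and the highest of 21 and 23 nt. The six-tissue and further livers did not overlap for the 22 nt form (39.3% and 59.0% against 59.3% to 69.3%), the 21 nt form or the 20 nt form (0.377% to 0.492% against 0.968% to 1.26%), nor did they for 46.8% of the 948 forms of all arms with at least 1% of their arm.

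These 3 forms differ by a base at their end, shown here because base 37 of the template is itself a u. A u added to the 22 nt form after cutting would look the same as the template, and only perfect matches were kept. Reads with an added base that differs from the template are thus missing from the shares of both arms. In the 3p arm bases 70 and 72 of the template are a, so an added a would look the same there.

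mir-122-5p, 21 nt: uGGAGUGUgacaaugguguuu
mir-122-5p, 22 nt: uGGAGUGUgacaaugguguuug
mir-122-5p, 23 nt: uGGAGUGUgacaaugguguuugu

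**Figure D4:**
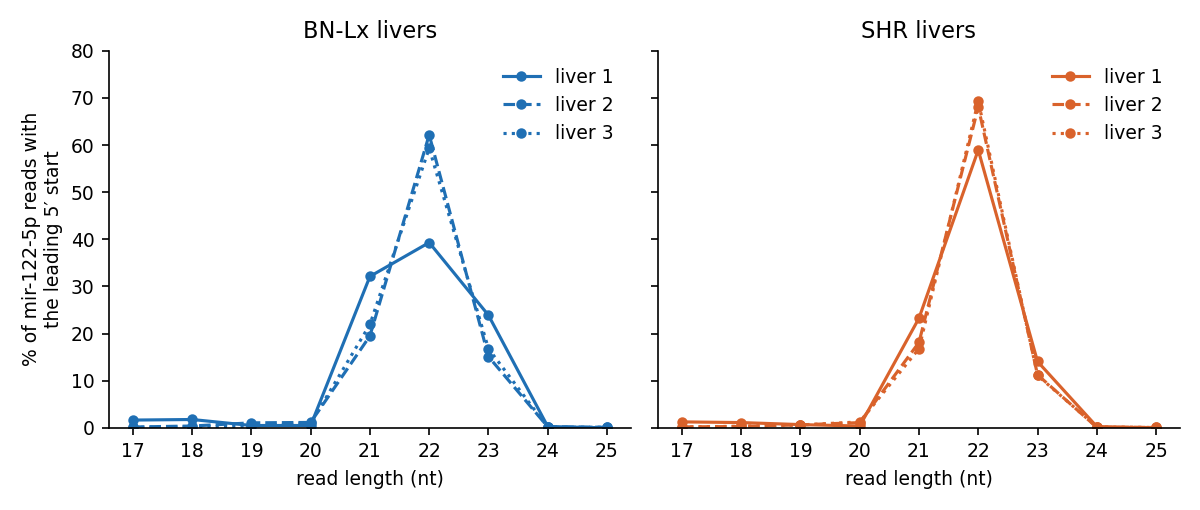
Length of mir-122-5p reads from base 15 in nt, in percent of such reads, for 3 BN-Lx livers (left) and 3 SHR livers (right), 1 line per liver. The 22 nt form leads in each liver, with 39.3% in BN-Lx liver 1 and 59.0% to 69.3% in the others.

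As a share of all 5p reads, the 23 nt form was 18.5% ± 4.53 (SD, n = 3) in BN-Lx and 12.1% ± 1.61 (SD, n = 3) in SHR, and this was the one form whose strains did not overlap among 13 forms with at least 1% of their arm. Over 948 such forms of 165 arms 6.75% did not overlap, so 1 of 13 is near the background. The 22 nt form was 53.4% ± 12.6 (SD, n = 3) and 65.2% ± 5.88 (SD, n = 3), higher in SHR within each of the 3 replicate numbers, but with overlap. In limma on the log2 odds, added after the values were seen, 23 nt differed by -0.70 (SE 0.39) and 22 nt by 0.72 (SE 0.50), both with an adjusted p of 0.998. With the replicate number as a block the adjusted p was 0.822 for both, and the exact permutation p of the 23 nt form was 0.1, the smallest possible, or 0.743 adjusted over the 13 forms. In counts edgeR called 0 of 44 mir-122 forms, 0 also at an unadjusted p under 0.05, and 0 of 1066 forms of all hairpins (0%).

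The mean length of the reads from base 15 was 21.7 to 21.9 nt in all 6 livers, and differed by strain by -0.004 nt (SE 0.07, 95% interval -0.18 to 0.17, adjusted p 0.971 by limma; 0 of 159 arms called, 0%). Between liver and the other tissues it differed by 0.12 nt (SE 0.08, adjusted p 0.317), where 5 of 78 arms were called (6.41%). In the 10 other libraries the 22 nt form had 45.1% to 57.7% of the reads from base 15. This was above the 39.3% of BN-Lx liver 1 and below the other 5 livers, with 59.0% to 69.3%. The shares outside the liver rest on only 21 to 228 reads from base 15. As a share of all 5p reads, the exact 95% interval in SHR kidney was 45.4% to 69.4%, which reaches liver values. In BN-Lx brain, with the most reads, it was 41.7% to 54.9%.

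The 3′ ends of mir-122-3p were more spread, and each start had its own pattern. From base 51, reads ended at base 69 in 24.1% to 36.1% over the 6 livers, at base 71 in 26.0% to 33.8%, at base 70 in 11.5% to 17.7% and at base 72 in 15.3% to 22.1%. This gave leading lengths of 19 and 21 nt, with base 69 ahead in 4 livers and base 71 in the other 2. Of these ends the sets did not overlap for base 70, with 11.5% to 13.3% in the six-tissue livers and 16.5% to 17.7% in the further livers. Nor did they for rarer ends such as base 68, with 3.56% to 3.87% against 0.587% to 3.39%. As shares of their arm, 46.8% of the 948 forms of all arms did not overlap between these sets. From base 50, reads ended at base 69 in 41.8% to 46.1%, which made 20 nt the leading length in all 6 livers. Base 71 had 16.8% to 25.0%, base 68 had 12.9% to 20.6% and base 70 had 10.3% to 17.7%, in an order that varied between livers, whereas base 72 had only 0.573% to 0.907%.

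From both starts reads became rare beyond the same length. The 22 nt forms, to base 71 from base 50 and to base 72 from base 51, were common from both starts, while the 23 nt forms had 0.573% to 0.907% from base 50 and 0.513% to 1.52% from base 51. In the 5p arm the 23 nt form had 11.1% to 23.9%, as given above. The forms at the limit are these.

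mir-122-3p from base 50, 22 nt: aAACGCCAucaucacacuaaac
mir-122-3p from base 51, 22 nt: aACGCCAUcaucacacuaaaca

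**Figure D5:**
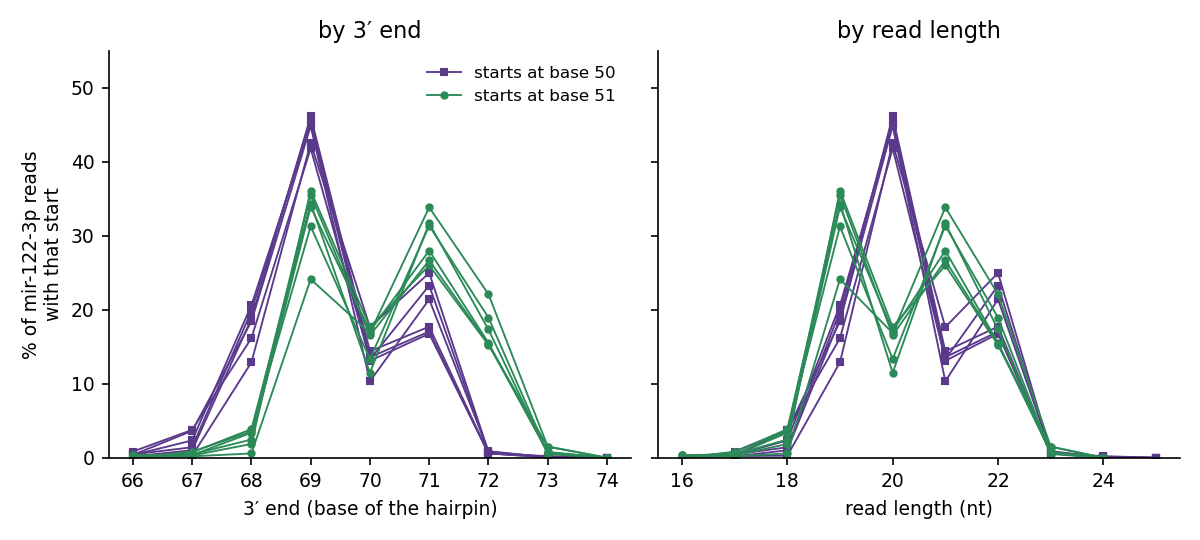
Ends of mir-122-3p reads in the 6 livers, in percent of the reads with the same start, plotted by the hairpin base of the 3′ end (left) and by read length in nt (right); 1 line per liver, squares for starts at base 50 and circles for starts at base 51. By end the starts part at base 72, which has 0.573% to 0.907% from base 50 and 15.3% to 22.1% from base 51, and by length both fall off after 22 nt.

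The mean end of reads from base 51 lay 0.934 ± 0.038 nt (SD, n = 6) beyond that of reads from base 50, with 0.873 nt in BN-Lx liver 2 as the lowest and 0.988 nt in BN-Lx liver 3 as the highest. By set the mean was 0.944 nt in the six-tissue livers and 0.928 nt in the further livers. This was looked at after the read ends were seen and is a description. The 10 other libraries, tissues of 2 animals, had the same sign in 10 of 10, from 0.028 to 1.41 nt, with 13 to 236 reads of 3p each. In mean length the starts differed in liver by only -0.066 ± 0.038 nt (SD, n = 6), reads from base 51 being the shorter in 6 of 6.

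Mean lengths of reads from base 51 were 20.2, 20.1 and 20.5 nt in BN-Lx livers and 20.3, 20.1 and 20.1 nt in SHR livers. The strain difference was -0.13 nt (SE 0.12, 95% interval -0.43 to 0.18, adjusted p 0.942 by limma). Liver differed from the other tissues by -0.04 nt (SE 0.09, 95% interval -0.26 to 0.18, adjusted p 0.804), and 9 of 132 arms with at least 5 reads in each library were called (6.82%).

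The opposite strand of the locus is named rno-mir-122-as in the files. It had 2 reads in BN-Lx spleen and 0 in each of the other 15 libraries, where a count of 0 allows up to 0.929 rpm in the deepest liver and 112 rpm in BN-Lx testis. Antisense reads were therefore not detectable in liver at this depth, beside 1391148 reads of mir-122-5p in the deepest liver.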

How the data were processed

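Small RNA of 16 libraries was sequenced on SOLiD, and the authors trimmed the linker, mapped reads with SHRiMP to pre-miRNA hairpins (rat genome RGSC3.4, miRBase V12) and kept perfect matches. They deposited, per start and end on a hairpin, an estimated count (reads fitting several hairpins are divided among them; 0 of 995 rows of mir-122 hold fractions), without normalization. Size selection, adapter ligation and PCR without molecular identifiers can favour particular ends, so arm shares are shares of reads. The lists of piRNA clusters were not used.

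Here equal rows were summed, and reads with a midpoint more than 20 nt from that of the leading form were given to the other arm (14 reads beyond both arms were left out). Reads were divided by the total hairpin reads of the library to give rpm. Arms and read forms were tested with edgeR 4.0.16 (quasi-likelihood, TMM, filterByExpr) on counts rounded to whole numbers, with DESeq2 1.42.0 as an alternative. Log2 5p/3p and log2 odds of the main start (0.5 read added) and the mean length of reads from the main start were tested with limma 3.58.1. Hairpins (both arms together) or arms needed at least 20 reads in each library. Adjustment was by Benjamini-Hochberg over all features at 0.05, and tests were two-sided. The minimum was lowered to 5 reads for 3p starts and lengths between tissues, because SHR spleen has 13 reads of mir-122-3p. Shares have exact Clopper-Pearson intervals at 95%, and the limit of a count of 0 is 3 reads.

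In liver the strains were compared over 3 and 3 libraries. Livers were compared with other tissues over the 12 libraries of the six-tissue set, with strain as a term. Tissues of 1 animal are not independent. The edgeR and limma p-values there rest on the spread left between 2 animals after the tissue and strain terms. The permutation p-values treat the 12 libraries as exchangeable, so they ignore the animals and include the spread among tissues. Livers sharing a replicate number deviated together from their strain means (correlations 0.668, 0.570 and 0.300 over 271 arms). Replicate 1 of both strains belongs to the six-tissue set, which alone can make all of these positive. The correlations therefore cannot show that replicates 2 and 3 are paired, and the replicate block is only an alternative. The text names both arms, 5′ starts with at least 0.1% and forms with at least 1% of their arm in the livers, the antisense hairpin, the 5 arms most like mir-122-5p, the 3 hairpins with the largest change of arm ratio in each direction, and a list of liver miRNAs. Members and lists were chosen with earlier results of these data known. Simulated data were used to try the edgeR and limma tests between strains, and between tissues the edgeR test of arms and the limma test of the arm ratio. The limma tests of starts and lengths between tissues, DESeq2 and the permutation tests were not tried in this way. Simulated counts varied less than those of the livers, whose biological coefficient of variation was 0.63. Other software was R 4.3.3 and Python with scipy. Coordinates and sequences are of RefSeq on GRCr8.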

Additional observations from a re-analysis of the deposited data

How the results depend on the processing

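Over 15 results 156 alternatives were computed. The difference of levels between liver and the other tissues was called in every alternative with a test, and for 5p it was 11.27 in BN-Lx alone and 11.77 in SHR alone on the log2 scale. No strain result passed the threshold under any alternative. The replicate block changed no call: with it the strain difference in liver was 0.01 for the 5p level, 0.36 for the 3p level and -0.35 for the arm ratio. Leaving out 1 liver at a time gave strain differences of -0.24 to 0.31 for the 5p level, 0.13 to 0.64 for the 3p level, -0.95 to -0.01 for the arm ratio, -0.82 to 0.69 and -0.10 to -0.02 for the log2 odds of the 5p and 3p main start, and -0.053 to 0.028 nt and -0.21 to -0.01 nt for the 5p and 3p lengths. Over the 4 further livers alone the strain difference was -0.13 for the 5p start, 0.78 for the 3p level (SE 0.22, adjusted p 0.301 by edgeR, against 0.32 over 6 livers), -0.77 for the arm ratio and -0.22 nt for the 3p length (against -0.13 nt). The changes of sign are of differences that were not called. Without the filter on low counts, 8 read forms were called by strain over all hairpins against 0 with it, and 0 of these were of mir-122.

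Between tissues, the arm ratio was called with all 16 libraries (3.13) and without SHR spleen (2.58). The 5p start share was called with 1 read added (2.11) and with all 16 libraries (3.07), and the 5p length with all 16 (0.20 nt). With all 16 libraries 17 hairpins of 79 were called for the arm ratio against 2 of 81, 42 arms of 77 against 1 of 79 for starts, and 40 of 76 against 5 of 78 for lengths; 226 arms of 466 were called by level against 118 of 457. Where the 3p arm was fitted at a minimum of 5 reads, it was 49 of 134 against 3 of 137 for starts and 55 of 129 against 9 of 132 for lengths. The other alternatives called 1 to 3 hairpins for the arm ratio, 0 to 3 arms for 5p starts, 3 to 9 for 5p lengths, 1 to 7 for 3p starts and 2 to 10 for 3p lengths. The added livers differ from the six-tissue set, and the cause was not tested. Without testis the 3p length difference was 0.011 nt. A minimum of 50 reads left no value for starts and lengths between tissues, and a minimum of 5 is what the 3p values there already use.

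The traces outside liver rest on 54 to 470 reads a library, which limits shares of starts and ends there. The strain comparisons in liver rest on 3 animals a strain.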
